A study of Mus musculus with 36 samples.

Results

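The genes described here are 10 genes that newborn neurons switch on to build their cytoskeleton and extend processes, taken by name from the 46603 genes listed in the count tables, namely Tubb3, Dcx, Mapt, Map1b, Map2, Stmn2, Stmn3, Gap43, Ina and Nefm. Each was followed by its gene symbol in all libraries, and each passed the filter on low counts at both stages. RNA sequencing had been carried out on embryonic mouse forebrain with reduced levels of Chd8, which encodes an ATP-dependent chromatin remodelling factor linked to autism. At E12.5 the neocortex of single C57Bl/6J embryos was sequenced for 4 genotypes with 3 libraries each. These were wildtype (Chd8 +/+), Chd8 +/-, which carries 1 null allele lacking exon 3, Chd8 neo/neo, which carries a neomycin cassette between exons 3 and 4 on both alleles, and Chd8 neo/-, which combines the neo and the null allele. At E10.5 the tissue (labelled cortex, telencephalic vesicles in the study's methods) of 2 C57Bl/6J embryos was pooled for each of 3 libraries per group. Ctrl embryos were labelled as a mix of Chd8f/f and Chd8 f/+ genotypes, with no Cre named, and cKO embryos as sox1-Cre; Chd8f/f. The null allele was made by β-actin Cre recombination in the germline and is present in all cells, whereas sox1-Cre acts in the neural lineage from the neuroepithelium onwards, so that blood, vessels and mesenchyme of cKO tissue would keep Chd8.

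Microtubules are polymers of α- and β-tubulin. A neuron differs from the progenitor it came from in the β-tubulin isotype it adds, in the microtubule-associated proteins (MAPs) that stabilise and bundle the polymer, in the stathmins that bind free tubulin dimers and in its intermediate filaments. In the mouse neocortex the first neurons leave the ventricular zone from about the earlier of these stages and form a thickening layer outside it, and the 10 genes are widely used as marks of that transition. None of them is specific to 1 kind of neuron.

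The depth was 38774591 to 61051667 counts per library at E12.5 and 49632937 to 68488879 at E10.5. The smallest count for any of the 10 genes was 1180 at E12.5 (Nefm) and 96 at E10.5 (Mapt), so counting error was small beside the spread between embryos at the later stage. Levels are given as CPM (counts scaled to a common library size, with TMM factors within a stage), with means ± SD of n = 3 libraries. Chd8 itself was at 237 ± 2.41 CPM in wildtype and, with adjusted p from 8.59e-07 to 0.0201, lower in the other genotypes, at 149 ± 8.38 (Chd8 neo/-), 167 ± 3.04 (Chd8 +/-) and 209 ± 5.64 (Chd8 neo/neo). At E10.5 it was at 171 ± 12 CPM in Ctrl and 121 ± 4.78 in cKO (adjusted p = 0.00109). These counts run over all Chd8 exons, so a transcript that lacks exon 3 or splices into the cassette is still counted, and the order of genotypes in Chd8 counts is not that of intact transcript. Among cell type markers, Tbr1, Pax6 and Eomes, which mark cortical neurons, radial glia and intermediate progenitors, were at 226, 155 and 156 CPM in Chd8 +/+. The ventral telencephalon and GABAergic markers Dlx1, Dlx2 and Gad2 were at 243, 130 and 120 CPM. Summed over its list, that kind of marker was at 826 ± 19.3 CPM in Chd8 +/+, and markers of cortical glutamatergic neurons were at 861 ± 60.3. The part of ventral neurons in the values of the 10 genes was not tested. The E12.5 comparisons share the same 3 Chd8 +/+ libraries and are not independent of each other. Embryos carrying Xist RNA were unevenly spread at E12.5 (1 of 3 in Chd8 +/+, 1 of 3 in Chd8 +/-, 2 of 3 in Chd8 neo/neo, 0 of 3 in Chd8 neo/-), and Dcx lies on the X chromosome. At E10.5 Xist was at 1779, 3.09 and 2141 CPM in Ctrl 1, 2 and 3, and summed Y-linked genes at 0.917, 248 and 1.40 CPM. The 3 cKO pools carried both, with Xist at 1069, 708 and 772 CPM and Y-linked genes at 69.8, 135 and 95.2 CPM.

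The promoters of Dcx and Map2 are shown because these were the genes of the set that passed the test at E12.5, and those of Tubb3 and Map1b because they are the most abundant per length and did not pass. The sequences are the 250 bases before a RefSeq transcription start (build GRCm38.p6), read 5′ to 3′ on the strand of the gene. RefSeq promoters were matched for 6 of the 10 genes (Tubb3, Dcx, Map1b, Map2, Stmn3, Ina), and Dcx had 2 starts, of which the upstream one is printed. Capitals mark letters found on either strand that spell an E-box (searched as CAGATG, or with the central pair changed to read CAGCTG). They also mark the GC box, GGGCGG. The TATA box was searched as TATAAA. In the Ensembl annotation of the count tables Dcx spans chrX:143855842-143933311, Map2 chr1:66175273-66442583 and Tubb3 chr8:123411424-123422015. The printed windows of these genes thus reach into their Ensembl gene models and are not wholly upstream of them. Map1b spans chr13:99421464-99516602, and its window lies outside.
Dcx, chrX:143933220-143933469, minus strand: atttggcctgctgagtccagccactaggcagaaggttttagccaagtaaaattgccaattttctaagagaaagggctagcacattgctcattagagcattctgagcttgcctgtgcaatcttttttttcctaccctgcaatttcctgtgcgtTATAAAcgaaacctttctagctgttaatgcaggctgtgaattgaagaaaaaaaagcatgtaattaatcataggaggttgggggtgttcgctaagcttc
Map2, chr1:66175079-66175328, plus strand: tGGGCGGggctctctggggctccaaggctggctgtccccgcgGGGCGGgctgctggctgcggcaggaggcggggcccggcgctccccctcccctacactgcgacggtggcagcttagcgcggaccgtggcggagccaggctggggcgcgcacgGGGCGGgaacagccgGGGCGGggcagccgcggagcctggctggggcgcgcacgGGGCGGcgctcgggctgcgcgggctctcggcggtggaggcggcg
Tubb3, chr8:123411303-123411552, plus strand: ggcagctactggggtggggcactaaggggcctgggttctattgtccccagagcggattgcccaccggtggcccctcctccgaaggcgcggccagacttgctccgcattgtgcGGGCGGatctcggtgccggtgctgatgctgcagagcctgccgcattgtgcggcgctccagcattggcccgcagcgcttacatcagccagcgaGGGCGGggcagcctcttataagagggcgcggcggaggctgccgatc
Map1b, chr13:99516603-99516852, minus strand: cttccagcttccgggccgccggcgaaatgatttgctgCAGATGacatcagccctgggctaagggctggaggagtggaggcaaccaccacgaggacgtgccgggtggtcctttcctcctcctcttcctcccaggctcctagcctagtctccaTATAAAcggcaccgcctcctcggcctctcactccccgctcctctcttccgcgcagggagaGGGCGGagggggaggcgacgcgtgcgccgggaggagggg

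The sequences of Dcx and Map2 had little in common. The window of Dcx was 41.6% G or C and held TATAAA 98 bases before the start, whereas the window of Map2 was 81.2% G or C and held GGGCGG at 5 positions and no TATAAA. Over the 6 matched genes, in windows that also took in 50 bases after the start, GGGCGG stood in 4 (Tubb3, Map1b, Map2, Ina), beside 35.7% of all 32851 promoters. TATAAA was found in 2 (Dcx, Map1b), beside 13.6%, CAGATG in 2 (Map1b, Stmn3), beside 17.2%, and CAGCTG in 1 (Ina), beside 16.3%. The left arm of the site of the neuronal repressor REST, searched as TTCAGCACC, was found in 0 of 6, beside 0.371%, which says only that these letters are not in the windows. CAGCTG is its own reverse complement, so a match on either strand is the same match. A match of letters is a description of the window and not evidence that a factor binds there.

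In Chd8 +/+ neocortex at E12.5, per kilobase of exon, Tubb3 (neuron-specific class III β-tubulin) had the highest level of the 10 genes at 613 ± 63.9 CPM per kb, followed by Map1b (a MAP of growing axons) at 165 ± 12.8. Ina (α-internexin, the first neuronal intermediate filament subunit to appear) at 105 ± 11 and Stmn3 (a stathmin of the neuronal Golgi) at 99.8 ± 16.8 overlapped. Gap43 (a growth cone membrane protein) at 73.2 ± 9.52, Dcx (doublecortin, a MAP of migrating neurons) at 69.1 ± 5.47 and Map2 (a MAP of dendrites) at 63.9 ± 4.33 followed, where Gap43 overlapped with Dcx and Dcx with Map2 but Map2 did not overlap with the next gene. Stmn2 (a stathmin of the growth cone) at 48.7 ± 6.90, Mapt (tau, a MAP of axons) at 30.2 ± 4.48 and Nefm (the medium neurofilament subunit) at 6.89 ± 0.401 CPM per kb were lower, with no overlap between neighbours. Levels per kilobase assume that the whole exon model of a gene is transcribed, which lowers genes with long alternative 3′ ends.

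At E10.5 the same genes were much lower. Tubb3 was again first in Ctrl, at 70.6 ± 24 CPM per kb, and Map1b second at 26.6 ± 2.41, while Dcx at 1.36 ± 0.718, Nefm at 1.30 ± 0.0875 and Mapt at 0.352 ± 0.114 were the lowest. The ratio of the mean in E12.5 Chd8 +/+ to the mean in E10.5 Ctrl ran from 5.29 for Nefm to 85.7 for Mapt, with a median of 9.43 over the 10 genes. Ina (65.2-fold) and Dcx (50.7-fold) were near the upper end, Stmn2 (17.3-fold) and Map2 (10.2-fold) in the middle, and Tubb3 (8.68-fold), Stmn3 (6.65-fold), Map1b (6.22-fold) and Gap43 (6.18-fold) near the lower end. The groups did not overlap for any of the 10 genes. No test was made, because stage, dissection, pooling, alleles and sequencing runs differ together and cannot be told apart, and the tables were scaled separately. Of 9 markers of cortical glutamatergic neurons, 8 had higher means in E12.5 Chd8 +/+ than in E10.5 Ctrl. Neurod6 had 0 counts in all E10.5 libraries and Neurod2 at most 2, against 85.2 and 52.8 CPM at E12.5, and Sox5 went from 39.2 to 97.7 CPM. Fezf2, a transcription factor that progenitors also express, was at 70.9 CPM in Ctrl and 69.5 CPM in Chd8 +/+.

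**Figure D1:**
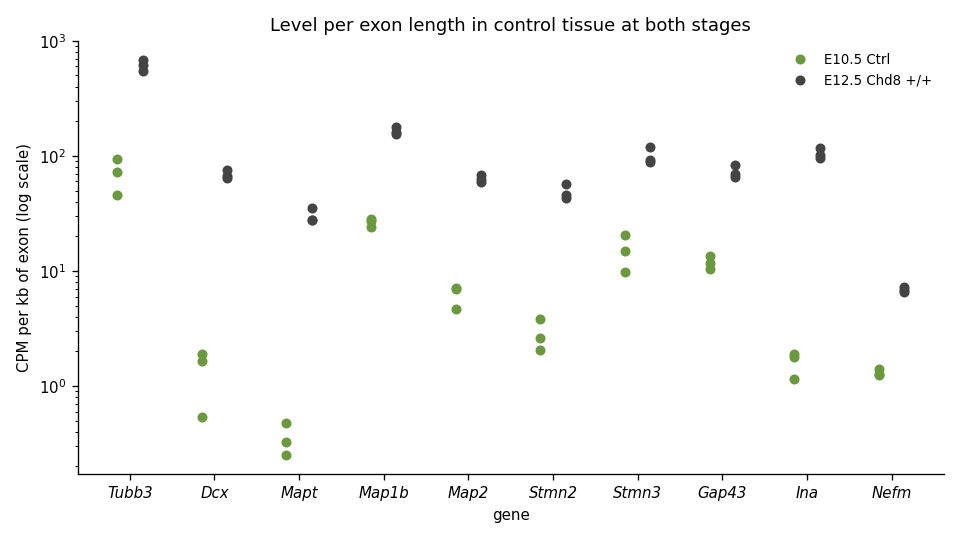
Level of each gene per kilobase of exon (CPM per kb, log axis) in the 3 Ctrl libraries at E10.5 and the 3 Chd8 +/+ libraries at E12.5, 1 point per library. All E12.5 points lie above all E10.5 points, by 5.29-fold (Nefm) to 85.7-fold (Mapt) in the means.

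Heterozygous loss of Chd8 was compared with wildtype first. In Chd8 +/- the 10 genes were at wildtype levels within the spread between embryos. Their log2 fold changes ran from -0.03 (Mapt) to 0.13 (Gap43) with a median of 0.02, 4 of 10 lay below 0, and no gene passed the test (adjusted p = 0.919 to 0.999). The background was as small: 0.00532% of the 18810 genes tested were called lower and 0.0159% higher. The unadjusted p was under 0.05 for 0 of the 10 genes and for 1190 of all genes, and DESeq2 also called 0 of the 10.

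Hypomorphic embryos with neo cassettes on both alleles were compared with the same wildtype embryos. In Chd8 neo/neo neocortex all 10 genes had lower means than in Chd8 +/+, and 2 of them, Dcx and Map2, fell past an adjusted p of 0.05 in edgeR's quasi-likelihood test, beside 4.45% of all genes tested called lower and 3.71% called higher. The median log2 fold change of the 10 genes was -0.31, beside 0.01 over all genes. The unadjusted p was under 0.05 for 7 of the 10 genes and for 4746 of all 18810 genes tested. In bulk tissue, fewer neurons and less RNA of these genes per neuron cannot be told apart.

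Among the MAPs, Dcx was at 821, 952 and 850 CPM in the 3 Chd8 +/+ libraries and at 627, 636 and 697 CPM in the 3 Chd8 neo/neo libraries. All mutant values lay below all wildtype values, and the change was -25.3% (log2 fold change -0.42 ± 0.08 SE, adjusted p = 0.00976). Map2 was at 983, 1125 and 1042 CPM in wildtype and 795, 847 and 878 CPM in Chd8 neo/neo. The groups again did not overlap (log2 fold change -0.32 ± 0.06, adjusted p = 0.00842). Mapt had the lowest fold change of the set, from 207, 266 and 208 CPM to 107, 123 and 179 CPM. Its groups did not overlap either, but the third mutant library stood well above the other two and the change of -0.74 ± 0.20 missed the threshold (adjusted p = 0.0575). Map1b was at 1827, 1931 and 2126 CPM in wildtype and at 1718, 1888 and 1663 CPM in Chd8 neo/neo, where 1 mutant library lay inside the wildtype range (log2 fold change -0.16 ± 0.07, adjusted p = 0.160).

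Tubb3, the tubulin of the set, was at 1027, 1266 and 1143 CPM in wildtype and 916, 1025 and 1089 CPM in Chd8 neo/neo. These groups overlapped by 1 library, with a log2 fold change of -0.18 ± 0.09 (adjusted p = 0.207). Of the stathmins, which hold tubulin dimers out of the polymer, Stmn2 went from 244, 317 and 259 CPM to 177, 208 and 245 CPM (-0.38 ± 0.12, adjusted p = 0.0874), with only the third mutant library reaching the wildtype range. Stmn3 went from 99.8, 135 and 105 CPM to 78.6, 94.8 and 112 CPM (-0.25 ± 0.14, adjusted p = 0.313). Gap43 was at 101, 128 and 106 CPM in wildtype and 78.3, 87.1 and 106 CPM in Chd8 neo/neo (-0.30 ± 0.12, adjusted p = 0.148), again with the third mutant library inside the wildtype range.

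Of the intermediate filament genes, Ina was at 309, 379 and 332 CPM in wildtype and 230, 278.5 and 307 CPM in Chd8 neo/neo. The groups did not overlap, by a narrow margin, and the change of -0.32 ± 0.13 did not pass (adjusted p = 0.142). Nefm was at 37.8, 42.3 and 39.4 CPM and 27.9, 42.2 and 33.0 CPM, which overlapped (-0.21 ± 0.14, adjusted p = 0.377). Groups without overlap in the lower direction were thus seen for 4 of the 10 genes (Dcx, Mapt, Map2, Ina), beside 13.5% of all genes tested. Map2 shares 124 exon bases with Gm10558, Ina shares 456 with Nt5c2 and Nefm shares 1108 with Nefl, each on the other strand, and since counting used no strand option, reads from these stretches cannot be told apart.

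**Figure D2:**
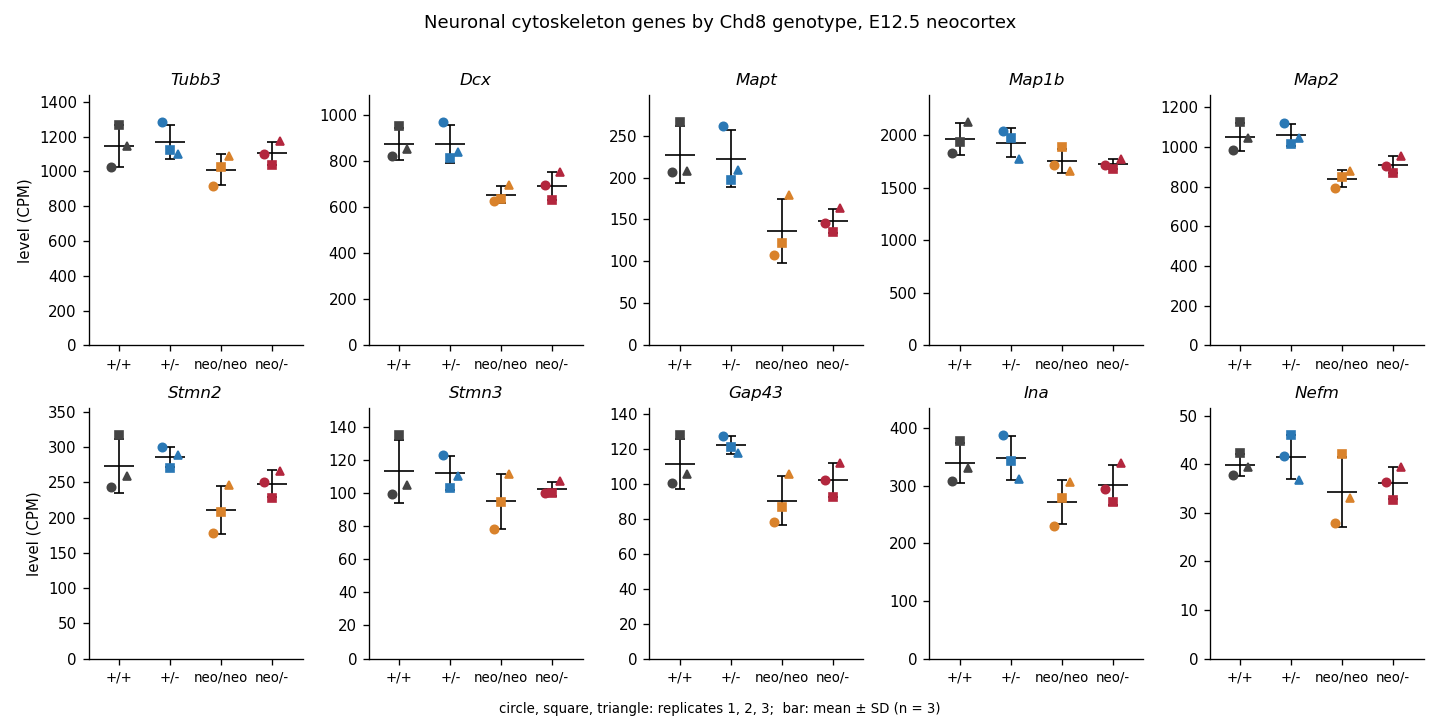
Level (CPM, each axis from 0) of the 10 genes in the 12 E12.5 libraries by genotype, with replicates 1, 2 and 3 as circle, square and triangle and the mean ± SD (n = 3) as a bar. Dcx, Map2 and Mapt lie lower in all libraries of both hypomorphs than in all Chd8 +/+ libraries. Ina does so only in Chd8 neo/neo and Map1b only in Chd8 neo/-, while Tubb3, Stmn3, Gap43, Stmn2 and Nefm overlap.

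Both calls were lost when a trend fitted first over exon length and then over GC content was removed. With that trend removed, Dcx was at -0.30 (adjusted p = 0.0503) and Map2 at -0.20 (adjusted p = 0.102), and 0 of the 10 genes were called, although the median stayed at -0.31. Under this setting 577 of all genes were called higher and 396 lower, against 697 and 837 without it. DESeq2, the tool of the study, called 6 of the 10 genes lower, adding Mapt (adjusted p = 0.00765), Stmn2 (0.00781), Ina (0.0284) and Gap43 (0.0338). It also called more of all genes lower, 9.49% of the 13757 to which it gave an adjusted p.

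One embryo bore on the count. The third Chd8 neo/neo library was the highest of its group for 8 of the 10 genes and the first was the lowest for 9, with sums over the 10 genes of 5309 and 4755 CPM. Without the third library 5 genes were called, with Mapt at -0.99 (adjusted p = 0.00633), Stmn2 at -0.51 (0.0168) and Gap43 at -0.44 (0.0223) joining Dcx and Map2. The share of all genes called lower rose as well, to 8.43%. The third library was also the only library of its group without Xist RNA. In wildtype the first library was the lowest for 10 of 10 genes and the second the highest for 9. With genotype means removed, correlations of log2 CPM between pairs of genes over the 12 libraries, which share their scaling, ran from 0.79 to 0.97 among 8 of the genes. Those of Nefm with the others ran from 0.25 to 0.64 and those of Map1b from -0.04 to 0.62, and both genes were set apart after these values were seen. The 10 genes are thus not 10 independent readings of the genotype.

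Other genes of the neuronal cytoskeleton and axon, 90 in 6 lists, were mostly lower when called in Chd8 neo/neo. Of the 89 that could be tested, 25 fell and 1 rose, 74 were below 0, and the median log2 fold change was -0.17. Over all genes tested, 4.45% were called lower and 3.71% higher, and 48.8% were below 0. Among 24 other microtubule-associated proteins 9 fell, among them Tppp (tubulin polymerisation promoting protein, -0.57), Dclk1 (doublecortin-like kinase, -0.26), Clasp2 (a plus-end protein, -0.22) and Camsap2 (a minus-end protein, -0.16), with adjusted p from 0.00161 to 0.0271. Of 13 axonal transport motors 5 fell, including the kinesins Kif21b (-0.34), Kif1a (-0.32) and Kif1b (-0.23) and the kinesin light chain Klc2 (-0.22). Of 17 growth cone and axon genes 5 fell, including the adhesion molecule Ncam1 (-0.41) and the collapsin response mediators Dpysl3 (-0.39) and Dpysl2 (-0.25). Of 20 other early pan-neuronal genes 5 fell, including Snap25 (-0.48), Gng3 (-0.39), Elavl4 (-0.29) and Elavl2 (-0.18), and 19 of 20 were below 0. Of 12 other tubulins that could be tested, Tuba4a fell by 0.69 on the log2 scale and Tubg1, the γ-tubulin of centrosomes, rose (0.22, adjusted p = 0.0316). None of the 3 other intermediate filament genes passed.

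Some progenitor markers were higher in the same libraries. Beside the marker counts that follow, 3.71% of all genes tested were called higher and 4.45% lower. Of 13 radial glia and neuroepithelium markers 2 rose (Sox2, 0.29, adjusted p = 0.0251, and Pax6, 0.19, adjusted p = 0.0199), with a median of 0.15 over the list. Of 13 proliferation markers 3 rose, including Mcm6 (0.22) and Mcm2 (0.21), with a median of 0.14 and 0 of 13 below 0. None of 9 markers of cortical glutamatergic neurons passed, at a median of -0.22, and the summed level of that list was 637 to 838 CPM in Chd8 neo/neo and 805 to 925 CPM in Chd8 +/+. Of 11 ventral and GABAergic markers Gad1 fell by 0.40 on the log2 scale. Of 10 intermediate progenitor markers Gadd45g rose (0.18), with a list median of 0.06, and of 6 endothelial markers Kdr fell (-0.17), with a list median of -0.06. The part of these shifts in the values of the 10 genes was not tested.

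The severe hypomorph, with 1 neo and 1 null allele, was compared with the same wildtype embryos. In Chd8 neo/- neocortex all 10 genes had lower means than in wildtype, with a median log2 fold change of -0.16, beside 0.0011 over all genes, and 2 of them, Dcx and Map2, passed the test. The background was 5.99% of all genes called lower and 5.48% called higher. The unadjusted p was under 0.05 for 4 of the 10 genes and for 4991 of all 18810 genes tested.

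Dcx was at 693, 631 and 753 CPM in the 3 Chd8 neo/- libraries, all below the lowest wildtype value of 821 CPM (log2 fold change -0.34 ± 0.08, adjusted p = 0.0174). Map2 was at 903, 870 and 955 CPM, below the lowest wildtype value of 983 CPM (-0.21 ± 0.06, adjusted p = 0.0411). Both genes were thus lower in all mutant embryos. Mapt was at 145, 136 and 163 CPM, without overlap with wildtype (-0.62 ± 0.20, adjusted p = 0.0844), and Map1b at 1713, 1680 and 1776 CPM, also without overlap (-0.19 ± 0.07, adjusted p = 0.0929). Groups without overlap were seen for these 4 MAPs and for none of the other 6 genes, beside 16.9% of all genes tested.

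The other 6 genes overlapped with wildtype. Tubb3 was at 1099.9, 1039.5 and 1174 CPM (-0.05 ± 0.09, adjusted p = 0.762). The stathmins Stmn2 (251, 228 and 265 CPM) and Stmn3 (100.03, 100.5 and 107 CPM) had log2 fold changes of -0.14 and -0.14 (adjusted p = 0.530 and 0.587). Gap43 (102, 92.8 and 112 CPM) was at -0.13 (adjusted p = 0.566), Ina (295, 272 and 340 CPM) at -0.17 (adjusted p = 0.440) and Nefm (36.4, 32.7 and 39.4 CPM) at -0.14 (adjusted p = 0.574).

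These 2 calls were lost under more alternatives than those in Chd8 neo/neo. With the length and GC trend removed Dcx was at -0.22 (adjusted p = 0.124) and Map2 at -0.07 (adjusted p = 0.581). Map2 was also lost with a sex-linked covariate (adjusted p = 0.0545) and with the replicate number as a block (0.0682), and when any of 6 libraries was left out (Chd8 +/+ 2 or 3, Chd8 +/- 3, Chd8 neo/- 1, 2 or 3), with adjusted p from 0.0571 to 0.171. Dcx was lost without Chd8 +/+ 2 (adjusted p = 0.0683), Chd8 neo/- 1 (0.0593) or Chd8 neo/- 2 (0.0825), and DESeq2 added Mapt (0.0261) and Map1b (0.0446), beside 10.1% of all genes called lower. With only these 2 groups in the fit Mapt was called as well (adjusted p = 0.00786).

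**Figure D3:**
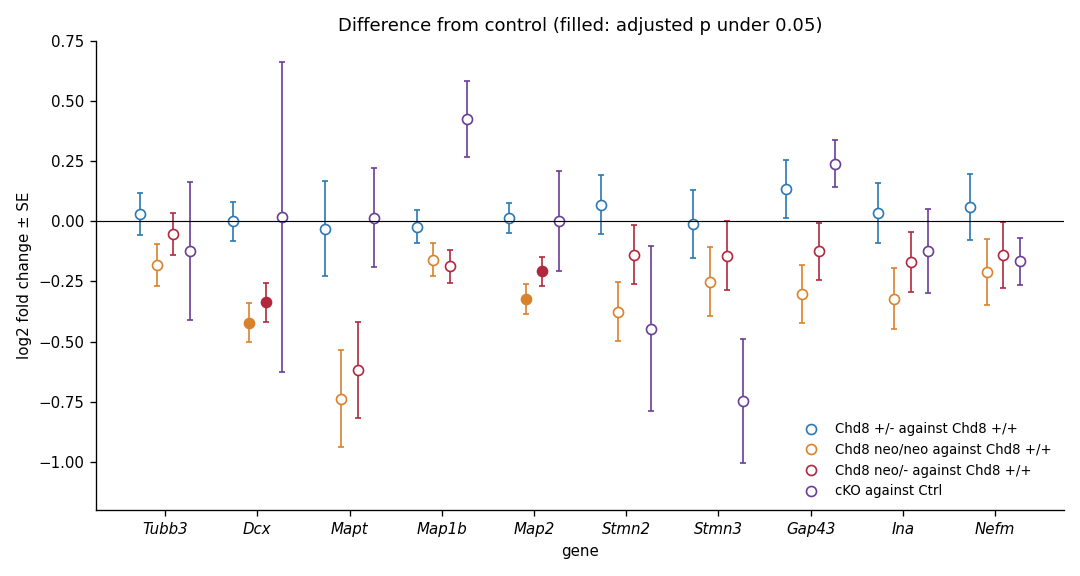
Log2 fold change ± SE of the 10 genes in heterozygotes and both hypomorphs against Chd8 +/+ (E12.5) and in cKO against Ctrl (E10.5), with filled points for an adjusted p under 0.05. Filled points are Dcx and Map2 in both hypomorphs, and the Chd8 +/- points lie between -0.03 and 0.13.

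In the pathway lists, 16 of 89 genes fell in Chd8 neo/- and 1 rose (Tubg1, 0.20), at a median of -0.13. Beside these counts, 5.99% of all genes tested were called lower and 5.48% higher. Of 24 other MAPs 6 fell, with Tppp (-0.73, adjusted p = 9.23e-05) first, then Camsap2 (-0.18), Pafah1b1 (the dynein regulator LIS1, -0.16) and Mapre3 (a plus-end protein, -0.27). The motors Kif1a (-0.33), Klc2 (-0.28), Kif1b (-0.26) and Kif5b (-0.23) were among 5 of 13 that fell. Ncam1 (-0.32) and Dpysl5 (-0.20) fell among 17 growth cone and axon genes, and Gng3 (-0.31) and Celf3 (-0.28) among 20 other early pan-neuronal genes. Of the cell type lists, 3 of 7 erythroid markers rose, with Hbb-bh1 at 1.61 (adjusted p = 0.0425) and Hba-x at 0.94 (0.0433), and their summed level was 4442 to 6881 CPM in Chd8 neo/- and 3139 to 3828 CPM in Chd8 +/+. Of 13 proliferation markers Mcm6 rose (0.18, list median 0.14), of 9 glutamatergic markers Sox5 fell (-0.21, list median -0.13) and of 11 ventral and GABAergic markers Gad1 fell (-0.34, list median -0.16). None of 13 radial glia markers passed. The part of the blood genes in the values of the 10 genes was not tested.

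**Figure D4:**
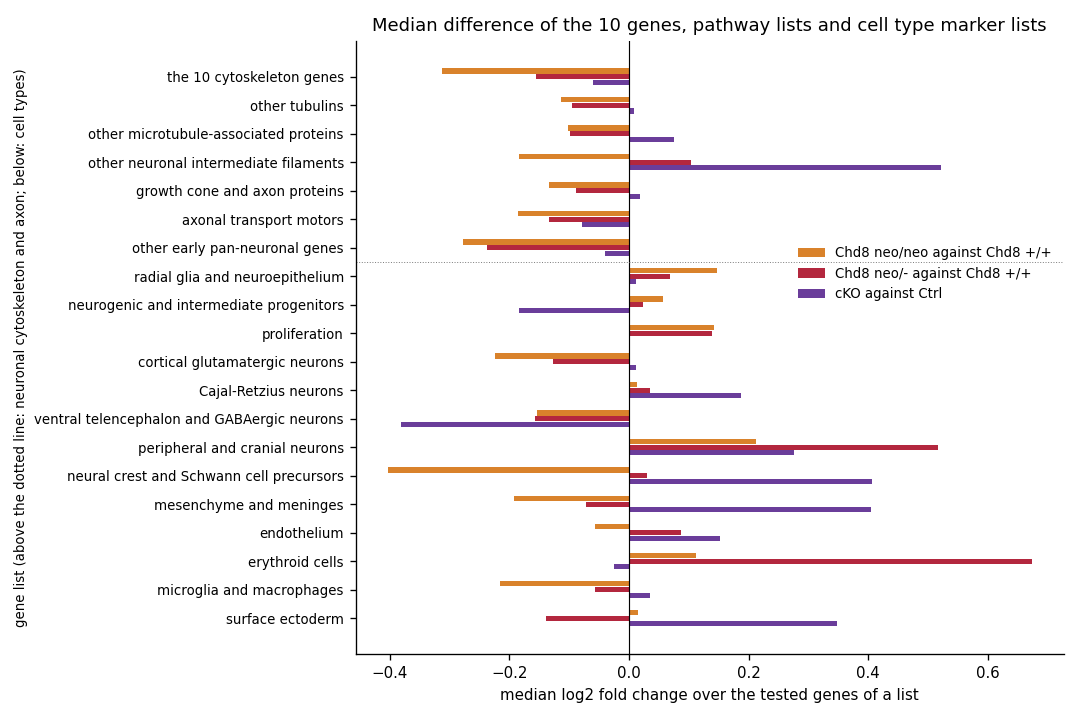
Median log2 fold change over the tested genes of each list in both hypomorphs against Chd8 +/+ and in cKO against Ctrl, with the 10 genes first, then 6 pathway lists and, below the dotted line, 13 cell type marker lists. In Chd8 neo/neo the 10 genes are at -0.31, other early pan-neuronal genes at -0.28, radial glia markers at 0.15 and proliferation markers at 0.14.

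The mutant genotypes were then compared directly. Against Chd8 +/- embryos, Chd8 neo/neo embryos had lower means for 10 of 10 genes (median -0.35) and 2 passed, Dcx (-0.42 ± 0.08, adjusted p = 0.0182) and Map2 (-0.34 ± 0.06, adjusted p = 0.0159), beside 3.28% of all genes called lower and 2% called higher. Neither passed when Chd8 +/- 1, Chd8 neo/neo 1 or Chd8 neo/neo 2 was left out (adjusted p = 0.0559 to 0.0747), and 5 genes were called without Chd8 neo/neo 3, where the share of all genes called lower was 7.27%. Chd8 neo/- embryos had lower means than Chd8 +/- for 10 of 10 genes (median -0.21) and 1 passed, Dcx (-0.34 ± 0.08, adjusted p = 0.03), beside 3.25% called lower and 2.18% called higher, while Map2 was at -0.22 (adjusted p = 0.0502). That Dcx call held in 14 of 23 alternatives. Among the losses were the fits without Chd8 +/- 1 or 3 or Chd8 neo/- 1 or 2 (adjusted p = 0.0559 to 0.132). In both comparisons 0 of the 10 were called once the length and GC trend was removed.

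Between the hypomorphs no difference was detected. Chd8 neo/- against Chd8 neo/neo gave log2 fold changes from -0.03 (Map1b) to 0.24 (Stmn2) with a median of 0.12, and 9 of 10 genes were above 0. None passed (adjusted p = 0.626 to 0.924) and none had an unadjusted p under 0.05, beside 0.00532% of all genes called lower and 0.0106% called higher. DESeq2 called 0 of the 10 as well. Summed over the 10 genes, the level was 6136 ± 448 CPM in wildtype and 6166 ± 436 in heterozygotes, against 5098 ± 299 for Chd8 neo/neo and 5368 ± 302.1 for Chd8 neo/- embryos.

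Loss of Chd8 in the neural lineage was examined 2 days earlier. At E10.5 the cKO libraries did not show a shared direction for the 10 genes. Of 10 log2 fold changes 5 were below 0, the median was -0.06, the range was -0.75 (Stmn3) to 0.42 (Map1b), and none passed (adjusted p = 0.125 to 0.996). Over all 18435 genes tested, 5.7% were called lower and 5.75% higher. The unadjusted p was under 0.05 for 3 of the 10 genes and for 5049 of all genes, and DESeq2 called 1, Map1b (higher, adjusted p = 0.00597), beside 9.74% of all genes called higher.

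Map1b was at 283, 324 and 338 CPM in Ctrl and 323, 465 and 481 CPM in cKO, where the first cKO library lay inside the Ctrl range (0.42 ± 0.16, adjusted p = 0.141). Without that library the gene was called (adjusted p = 0.00430). Stmn3 was at 23.2, 11.150 and 16.8 CPM in Ctrl and 11.146, 9.81 and 9.53 CPM in cKO, so that the groups touched (-0.75 ± 0.26, adjusted p = 0.125), and it was called without the second Ctrl library (-0.97, adjusted p = 0.00177). Gap43 was at 20.601, 17.7 and 15.9 CPM in Ctrl and 20.606, 21.5 and 21.7 CPM in cKO (0.24 ± 0.10, adjusted p = 0.142), and it was called without the first Ctrl library (adjusted p = 0.0330). Without the first cKO library, 900 of 18725 genes were called higher. The counts were 1153 of 18875 lower without the second Ctrl library and 865 of 18888 higher without the first. Groups did not overlap in the lower direction for Stmn3 and Nefm, beside 16.6% of all genes, and in the higher direction for Gap43, beside 15.7%, and for Stmn3 and Gap43 the gap was under 0.01 CPM.

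Of the remaining genes, 6 overlapped between groups and Nefm did not. Dcx was at 23.8, 6.87 and 21.1 CPM in Ctrl and 8.87, 25.1 and 18.4 CPM in cKO (0.02 ± 0.64, adjusted p = 0.992). Tubb3 was at 175, 85.1 and 136 CPM in Ctrl and 109, 135 and 119 CPM in cKO (-0.12 ± 0.29, adjusted p = 0.829). For Dcx, the second Ctrl and the first cKO library were low, and this held for most of the set: the second Ctrl library was the lowest of its group for 8 of the 10 genes and the first cKO library for 9. The second Ctrl library was also the only Ctrl library without Xist RNA. Map2 (115, 76.7 and 118 CPM in Ctrl, 84.5, 112 and 114 CPM in cKO) and Mapt (2.45, 1.91 and 3.60 CPM in Ctrl, 2.43, 2.80 and 2.82 CPM in cKO) had log2 fold changes of 0.00 and 0.01 (adjusted p = 0.996 and 0.975). Stmn2 ranged from 11.5 to 21.3 CPM in Ctrl and from 7.35 to 14.2 CPM in cKO (-0.45 ± 0.34, adjusted p = 0.470), Ina from 3.72 to 6.10 and from 4.25 to 5.12 CPM (-0.12 ± 0.17, adjusted p = 0.699), and Nefm from 7.17 to 8.10 and from 6.64 to 6.82 CPM (-0.17 ± 0.10, adjusted p = 0.301).

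**Figure D5:**
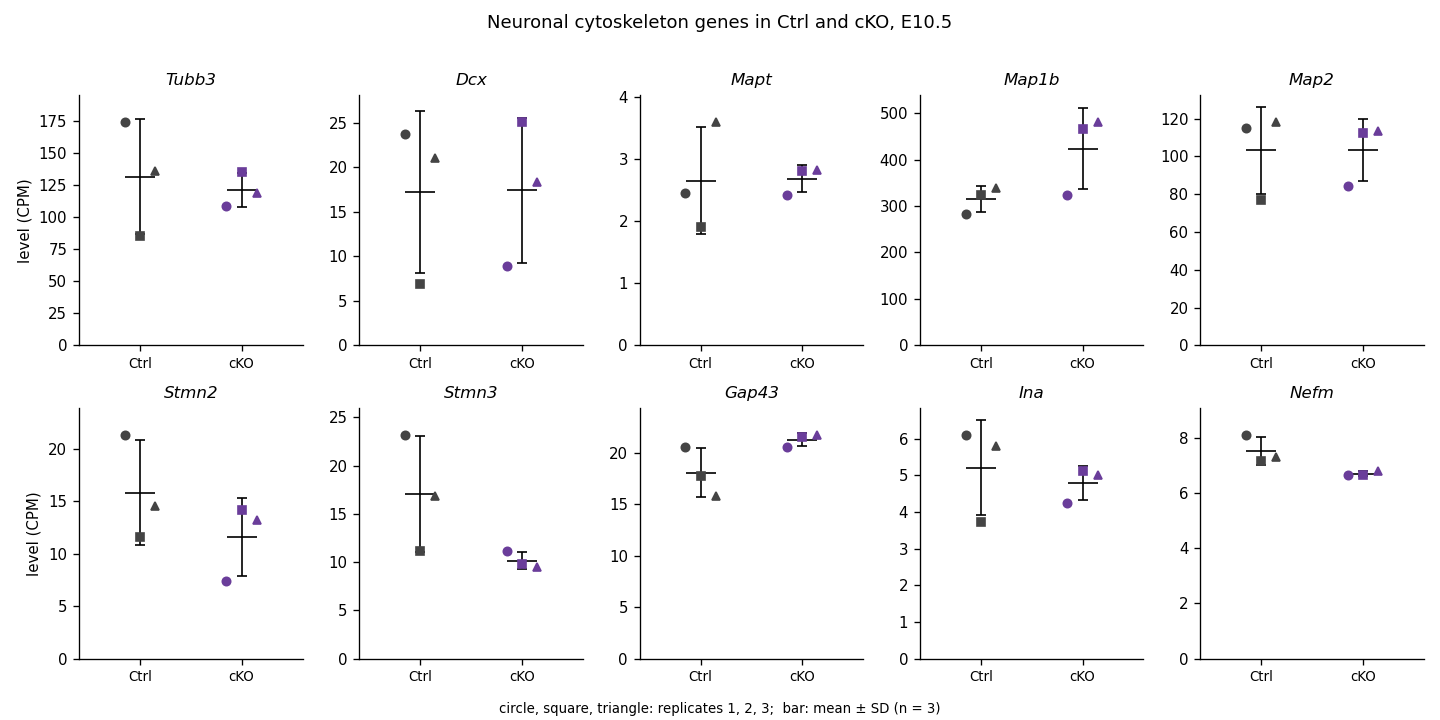
Level (CPM, each axis from 0) of the 10 genes in the 3 Ctrl and 3 cKO libraries at E10.5, each a pool of 2 embryos, with replicates 1, 2 and 3 as circle, square and triangle and the mean ± SD (n = 3) as a bar. The second Ctrl and the first cKO library are low for most genes, and the groups overlap or touch for all except Nefm.

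Of the 90 pathway genes 8 fell and 5 rose in cKO, beside 5.7% of all genes called lower and 5.75% called higher, so that these counts show nothing particular to the lists. The median was 0.02 and 40 were below 0. The tubulin Tubb6 (a broadly expressed β-tubulin) rose by 0.75 (adjusted p = 0.000191) and Tubb4a fell by 0.48 on the log2 scale. Of the other MAPs, Map6 (0.45) and Mapre2 (0.22) rose, and Tppp (-0.81) and Stmn1, another stathmin (-0.27), fell. Dbn1 (drebrin, an actin-binding protein, 0.23) and Crmp1 (0.24) rose and Dpysl4 (-0.24) fell, as did Klc2 (-0.30), Kif21a (-0.33), Gng3 (-1.02) and Snap25 (-0.67). Markers of mesenchyme and meninges rose in the same libraries, 4 of 8 passing, with Pdgfra at 0.41 and Col1a2 at 0.40, and their summed level was 926 to 1103 CPM in cKO and 714 to 809 CPM in Ctrl. Of 6 endothelial markers Cdh5 rose (0.25, list median 0.15), and of 8 microglia markers Cx3cr1 rose (0.48), while 4 of the 8 were below 0 and the list median was 0.03. Of 13 radial glia markers Sox1, the gene from which the Cre line takes its name (-0.63), and Prom1 (-0.25) fell, with a list median of 0.01. Ndnf (-0.44) fell among 8 Cajal-Retzius markers (list median 0.19) and Gsx2 (-1.43) among 10 ventral and GABAergic markers tested (list median -0.38). The part of these cells in the values of the 10 genes was not tested.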

How the data were processed

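RNA-seq libraries (12 at E12.5, 6 at E10.5, each from 2 sequencing runs) were read as deposited raw counts per gene. The authors had checked reads with FastQC 0.11.2, trimmed them with Trim Galore 0.4.1, aligned them to GRCm38 with TopHat2 2.1.0 and counted read pairs with featureCounts 1.5.0 over Ensembl genes, without a strand option per the file headers at E12.5 (not stated at E10.5), although the kit marks strand. The 2 runs of each library were summed. Genes passing edgeR's filterByExpr (18810 at E12.5, 18435 at E10.5) were scaled by TMM and tested with edgeR 4.0.16 (R 4.3.3) by the quasi-likelihood F test with robust dispersion, 4 genotypes in 1 fit at E12.5 and the E10.5 groups in another. Adjusted p-values are Benjamini-Hochberg values over all genes tested, and a gene was called at 0.05. They measure the spread between these libraries, which at E12.5 come from different litters. Each SE is the size of the log2 fold change divided by the root of F.

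The 10 genes, the gene lists and the alternatives were chosen with earlier results of these data known, and trend removal together with the block was added after the data had been seen. The text names all 10 genes, at most the 4 genes with the smallest adjusted p of a pathway list and at most 2 of a marker list. Alternatives were DESeq2 1.42.0, RLE and upper quartile scaling, no filter, single runs, a fit of only the 2 groups compared, leaving out each library, a sex-linked covariate, removal of a loess trend over exon length and GC content, and the replicate number as a block. Same-numbered libraries deviated together in 1 of 7 comparisons, Chd8 neo/neo against Chd8 +/- (correlations of 0.108, 0.195 and 0.199), although no source says that numbers are shared, and there the block left 2 of the 10 genes called and lowered the calls over all genes from 377 higher and 617 lower to 201 and 371. The fits were tested on simulated counts. Promoters came from RefSeq (GRCm38.p6), exon lengths from the deposited tables.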

Additional observations from a re-analysis of the deposited data

Results flagged for a closer look

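Direct tests between mutant genotypes passed the threshold for 2 of the 10 genes. Of all genes tested, 3.28% were called lower in Chd8 neo/neo than in Chd8 +/-, and 3.25% in Chd8 neo/-. Dcx was lower than in Chd8 +/- in Chd8 neo/neo (log2 fold change -0.42) and in Chd8 neo/- (-0.34). Map2 was lower in Chd8 neo/neo than in Chd8 +/- (-0.34). In the main fit the effects of these genotypes against the shared Chd8 +/+ libraries thus differed. Of 23 alternatives, the Dcx calls held in 17 (Chd8 neo/neo) and 14 (Chd8 neo/-) and the Map2 call in 17. Neither gene was called once the length and GC trend was removed. The adjusted p-values and the libraries on which they rest stand beside these comparisons in the report. The other genes had no such difference past the threshold, which does not show that they responded alike.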

How the results depend on the processing

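Direction was kept under every alternative for the called genes, Dcx and Map2, but their calls were not. The number of the 10 genes called in Chd8 neo/neo against Chd8 +/+ was 2, and 6 with DESeq2, 1 with only the 2 groups compared, 3 with the sex-linked covariate (Map1b added, adjusted p = 0.0423), 0 with the length and GC trend removed, 0 with that and the replicate block, and 2 to 5 on leaving out 1 library. For Chd8 neo/- it was 2, and 4 with DESeq2, 1 with the replicate block, 3 with only the 2 groups compared (Mapt added, 0.00786), 1 with the sex-linked covariate, 0 with the trend removed, with or without the block, and 0 to 3 on leaving out 1 library. For Chd8 neo/neo against Chd8 +/- it was 2, and 6 with DESeq2, 0 with only 2 groups, 0 with the trend removed, with or without the block, and 0 to 5 on leaving out 1 library. For Chd8 neo/- against Chd8 +/- it was 1, and 3 with DESeq2, 2 with RLE scaling, no filter, only 2 groups or run 1 alone, 0 with the replicate block, the covariate or the trend removed, and 0 to 3 on leaving out 1 library. For cKO it was 0, and 1 with DESeq2 (Map1b), 2 with the replicate block (Map1b, adjusted p = 0.0112, and Stmn3, 0.0493), 1 with the covariate (Stmn3, 0.00916), 1 with trend removal and block together, and 0 to 1 on leaving out 1 library. It was 0 throughout for Chd8 +/- against Chd8 +/+ and for Chd8 neo/- against Chd8 neo/neo. Calls over all genes moved as well. With DESeq2 they went from 697 higher and 837 lower to 979 and 1306 for Chd8 neo/neo against Chd8 +/+. For Chd8 neo/- they went from 1031 and 1127 to 1148 and 1455, and for cKO from 1060 and 1050 to 1449 and 1267. Against Chd8 +/-, DESeq2 called 611 higher and 1177 lower for Chd8 neo/neo and 572 and 1117 for Chd8 neo/-. With only 2 groups, 169 genes were called higher and 261 lower for Chd8 neo/neo against Chd8 +/+. For Chd8 neo/- these counts were 1191 and 1496. Against Chd8 +/- they were 20 and 22 for Chd8 neo/neo, and 640 and 868 for Chd8 neo/-. With the sex-linked covariate they were 446 and 560 for Chd8 neo/neo against Chd8 +/+, and 1284 and 1150 for cKO. With the replicate block they were 1386 and 1212 for cKO. The cause of these shifts was not tested. With the trend removed, calls over all genes went from 377 higher and 617 lower to 193 and 132 for Chd8 neo/neo against Chd8 +/-, and from 410 and 611 to 244 and 198 for Chd8 neo/- against Chd8 +/-.

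Signs turned for genes that were not called. In Chd8 +/- Dcx was at 0.0057 with DESeq2, 0.0051 with RLE scaling and 0.015 with run 1 alone, and Stmn3 at 0.0093 with the trend removed and 0.017 with the block as well. Map1b in Chd8 neo/- against Chd8 neo/neo was at 0.070 with the covariate. In cKO, Map2 was at -0.0043 with upper quartile scaling, -0.020 with run 2, -0.043 with the trend removed and -0.022 with the block as well. Mapt was at -0.015 with run 2, -0.045 with the trend removed and -0.012 with the block as well, Dcx at -0.043 with run 1 and Tubb3 at 0.028 with the covariate, which also turned the median over the 10 genes to 0.06. On leaving out 1 library, Chd8 +/- values ran from -0.045 to 0.11 (Tubb3), -0.082 to 0.070 (Dcx), -0.16 to 0.10 (Mapt), -0.075 to 0.045 (Map1b), -0.035 to 0.070 (Map2), -0.0099 to 0.19 (Stmn2), -0.098 to 0.14 (Stmn3), -0.052 to 0.12 (Ina) and -0.020 to 0.14 (Nefm). For Chd8 neo/- they ran from -0.13 to 0.030 (Tubb3) and -0.23 to 0.0077 (Stmn3), and against Chd8 neo/neo from -0.024 to 0.37 (Mapt), -0.060 to 0.027 (Map1b), -0.0082 to 0.25 (Stmn3) and -0.055 to 0.24 (Nefm). In cKO they ran from -0.36 to 0.13 (Tubb3), -0.36 to 0.33 (Dcx), -0.17 to 0.30 (Mapt), -0.17 to 0.13 (Map2) and -0.31 to 0.0038 (Ina). With 3 libraries a group, differences of this size could not be told from the spread between embryos.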

Other observations

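The genes whose levels followed the 10 genes most closely over the 12 E12.5 libraries were sought among the 10219 other genes with a mean of at least 10 CPM. By Pearson correlation of log2 CPM with the mean of the 10 genes they were Dpysl3 (0.990, a collapsin response mediator of growth cones), Syt1 (0.989, the calcium sensor of synaptic vesicles), Tmem130 (0.987), Snrpn (0.980), Lonrf2 (0.979), Oprl1 (0.979, the nociceptin receptor), Tspyl4 (0.977) and Tubb2a (0.974, a β-tubulin of neurons). The libraries share genotypes, so these values describe likeness over this set and carry no test.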
